A study of Mus musculus with 4 samples.

Results

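The Eps8 family was examined in RNA of the embryonic mouse cortex. Its 4 members, Eps8, Eps8l1, Eps8l2 and Eps8l3, were taken by gene name. The family was chosen by the read counts of Eps8l1 in this same comparison, which earlier results of these libraries had shown to be lower in the knock-in. The difference between genotypes is therefore only described for the members, and no p-value is given for them. The table holds 3 members among its 26433 genes, and Eps8l3 was not analysed here. Of these 3, Eps8 and Eps8l1 were among the 15786 genes that passed the filter on low counts, and Eps8l2 was not.

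Cortical tissue was collected at embryonic day 15 (E15) from cKI f/+ mice and from wild-type (WT) littermates, labelled as strain C57BL/6. The labels and the results of the study name cortex, whereas its methods name telencephalic tissue. The cKI f/+ mice carry one human SERPINA3 allele in the Rosa26 locus, behind a stop cassette and under the CAG promoter, and Nestin-Cre removes that cassette in neural progenitors and their descendants. Founders had been bred with B6D2F2 mice before the cross to Nestin-Cre, and the WT group is not described as carrying Cre. Each genotype had 2 libraries, named KI2 and KI3 for cKI f/+ and WT1 and WT3 for WT, where the labels describe triplicates. Nothing says whether a library is 1 embryo or a pool, so the spread between libraries may be partly technical.

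The libraries held between 17423512 and 18119444 counted reads, and the values below are CPM, read counts scaled to library size after TMM normalization. At this depth 3 reads, used as the floor, were worth between 0.166 and 0.172 CPM, which covers counting error only. Markers of the tissue were abundant, with summed levels from 5882 to 6557 CPM for 9 genes of cortical neurons and from 2221 to 2380 CPM for 8 genes of radial glia. Transcripts of the sex chromosomes divided the libraries exactly as genotype did. Xist had 13223 and 11882 reads in cKI f/+ and 5 in each WT library, whereas Kdm5d had 0 reads in both cKI f/+ libraries and 951 and 918 in WT. Eif2s3y, Ddx3y and Uty had at most 1 read per cKI f/+ library and at least 214 per WT library. Genotype and embryo sex therefore cannot be told apart for any gene below.

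Eps8 was named as a substrate of the epidermal growth factor receptor. With its partner Abi1 it caps the growing (barbed) ends of actin filaments, with Baiap2 (IRSp53) it bundles filaments, and with Abi1 and Sos1 it helps to activate the small GTPase Rac. In neurons it is known from growth cones and synapses, where it restrains the growth of filopodia. The Eps8-like proteins share its phosphotyrosine-binding and SH3 domains. Eps8l2 is best known from the tips of hair cell stereocilia in the inner ear, and Eps8l1 and Eps8l3 are less studied. In the annotation of the table, the 3 listed members have 4 gene ontology terms in common, namely Rac protein signal transduction, actin binding, ruffle membrane and extracellular exosome.

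Eps8l1 (ENSMUSG00000006154) lies on the plus strand of chromosome 7 of GRCm38, from 4460674 to 4480487, and has 14 annotated transcripts. RefSeq gives it starts at 4460697 and, further downstream, at 4464735 and 4464849, and the counts, which are summed over the whole gene, do not say which start was used. The windows of the first 2 of these starts are shown because Eps8l1 is the member whose level differed most between genotypes, with Eps8l2, a member on the same chromosome that was barely detected, for contrast. The 250 bases before each start are written 5′ to 3′ on the plus strand of GRCm38.p6, with each CpG in capitals. They span chr7:4460447-4460696 for the upstream start of Eps8l1, chr7:4464485-4464734 for its downstream start and chr7:141338752-141339001 for Eps8l2.
Eps8l1 upstream start: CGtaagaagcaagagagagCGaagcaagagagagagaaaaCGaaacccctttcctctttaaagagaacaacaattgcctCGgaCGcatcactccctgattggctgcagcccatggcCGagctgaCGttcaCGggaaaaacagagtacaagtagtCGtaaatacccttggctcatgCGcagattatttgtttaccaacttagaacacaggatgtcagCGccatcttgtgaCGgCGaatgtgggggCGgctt
Eps8l1 downstream start: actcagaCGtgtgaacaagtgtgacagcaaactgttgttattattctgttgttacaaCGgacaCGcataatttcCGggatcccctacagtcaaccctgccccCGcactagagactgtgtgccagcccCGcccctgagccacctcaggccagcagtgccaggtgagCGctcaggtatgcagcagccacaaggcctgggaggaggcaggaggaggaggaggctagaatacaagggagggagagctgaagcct
Eps8l2 start: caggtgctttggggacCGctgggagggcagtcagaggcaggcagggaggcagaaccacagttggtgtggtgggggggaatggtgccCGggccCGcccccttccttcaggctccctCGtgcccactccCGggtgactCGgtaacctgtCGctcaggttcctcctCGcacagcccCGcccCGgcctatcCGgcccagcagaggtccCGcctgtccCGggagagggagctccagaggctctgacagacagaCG

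The upstream window of Eps8l1 holds 14 CpG and its downstream window 7, where the median over 32817 such windows of all genes is 6. The Eps8l2 window also holds 14, as many as the upstream window of Eps8l1, although Eps8l2 had almost no reads. The window of the third Eps8l1 start, which is not shown, holds 3. Since the start in use is not known, no relation between CpG and reads is drawn. On both strands, TATAAA was in none of the 3 windows shown and is in 12.4% of all windows. CCAAT was once in the upstream window of Eps8l1, as its reverse complement, and is in 33.8% of all windows. GGGCGG was once in each Eps8l1 window and 2 times in that of Eps8l2, and is in 32.7% of all windows. These matches describe the letters only. RefSeq windows were matched for 3 of the 4 members, and Eps8 is the one without.

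Eps8l1 was the member with the clearest difference. It had 163 and 191 reads in the WT libraries and 36 and 21 in the cKI f/+ libraries. Both cKI f/+ libraries lay far below both WT libraries, and the groups did not overlap. The mean level was 10.1 ± 1.22 CPM (SD, n = 2) in WT and 1.60 ± 0.625 CPM (SD, n = 2) in cKI f/+, a log2 fold change of -2.66 with a standard error of 0.27. That is a 6.30-fold lower level in cKI f/+. Among the 15786 genes tested, 27 had a larger log2 fold change in either direction. The edgeR quasi-likelihood test with Benjamini-Hochberg adjustment called 19 genes at an adjusted p under 0.05, or 0.12% of those tested. Of these, 11 were higher (0.0697%) and 8 lower (0.0507%) in cKI f/+. Genes of the sex chromosomes were among them, with Xist higher and Kdm5d, Eif2s3y, Ddx3y, Uty and Xlr3b lower. Eps8l1 was 1 of the 8 called lower. That call led to the choice of the family, so it adds no support here.

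The libraries of a genotype were not equally close for this gene. The pooled SD of log2 CPM was 0.40, larger than that of 89.8% of tested genes, and most of it came from the cKI f/+ pair, where the lower library had 21 reads. Without KI2 the log2 fold change was -3.13, and without KI3 it was -2.31. Leaving out WT1 or WT3 gave -2.77 and -2.53. These values come from the same counts that led to the choice of the gene and only describe how much each library moved its value.

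Eps8 (ENSMUSG00000015766), the founding member, lies on the minus strand of chromosome 6 from 137477245 to 137654876, and has 13 annotated transcripts. It had 78 and 79 reads in the WT libraries and 104 and 117 in the cKI f/+ libraries. The cKI f/+ libraries lay above the WT libraries, the opposite order to Eps8l1, and the gap was narrower. The mean level was 4.48 ± 0.0791 CPM (SD, n = 2) in WT and 6.18 ± 0.391 CPM (SD, n = 2) in cKI f/+, with a log2 fold change of 0.46 and a standard error of 0.20. Larger differences in either direction were found for 1265 of the tested genes. Eps8 was not among the 19 called genes. Both tested members had libraries that did not overlap between genotypes, as did 34.1% of all tested genes.

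Eps8 lies on the chromosome that also holds the Rosa26 locus, into which SERPINA3 was inserted. The 2 positions are 24.4 Mb apart. Gt(ROSA)26Sor, the noncoding transcript of that locus, had 224 and 203 reads in cKI f/+ and 216 and 290 in WT, so its libraries overlapped. Its log2 fold change was -0.27 with a standard error of 0.17, and it was not called (adjusted p = 0.969, edgeR quasi-likelihood test).

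Eps8l2 (ENSMUSG00000025504), on the plus strand of chromosome 7 from 141338880 to 141363020, was at the limit of detection. It had 2 reads in KI3 and 0 reads in KI2, WT1 and WT3, so every library was under the floor of 3 reads and no fold is given. A noncoding gene on the other strand, B230206H07Rik, overlaps 1729 of its 5377 exonic bases. Whether strand was used in counting is not given in the sources used here, and without strand the reads of such a pair cannot be told apart.

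**Figure D1:**
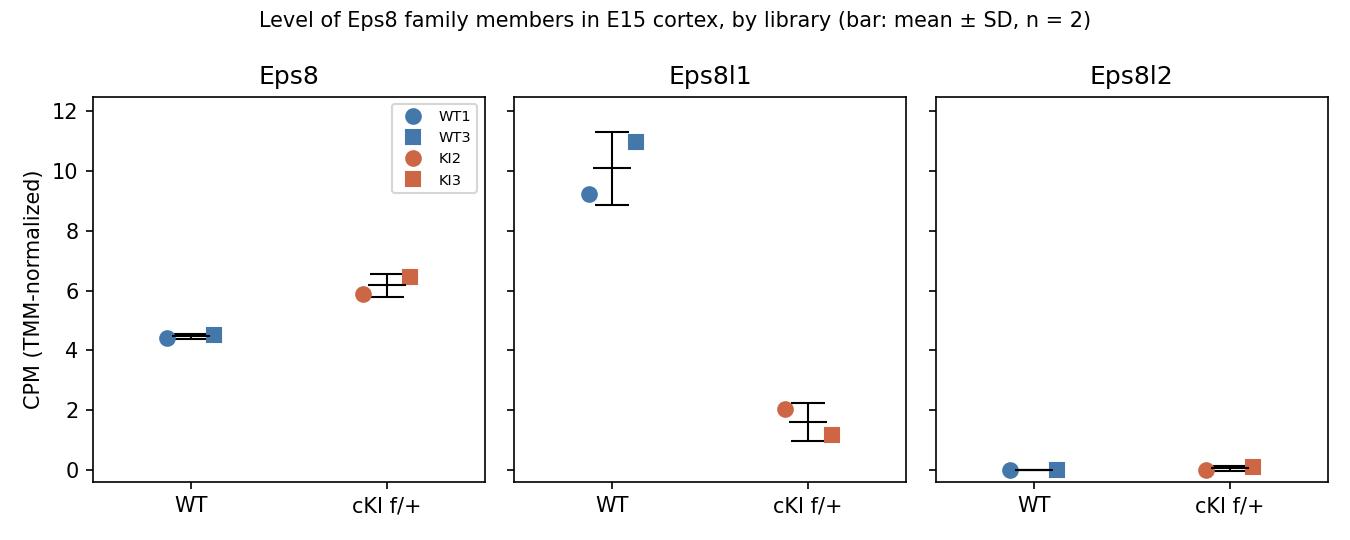
Level of Eps8, Eps8l1 and Eps8l2 in CPM after TMM scaling (vertical axis) in the 2 WT and 2 cKI f/+ libraries, with bars for the mean ± SD (n = 2). Eps8l1 lies at 9.24 and 10.96 CPM in WT and at 2.04 and 1.16 CPM in cKI f/+, Eps8 lies slightly higher in cKI f/+, and Eps8l2 is at or near 0 throughout.

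The members had no long stretch of sequence in common. With the transcripts of each gene cut into words of 31 bases, 0 words of any member occurred in another member. Of the 6235 words of Eps8l1, 0.577% occurred in transcripts of other genes on either strand, nearly all in Gm15494, an antisense gene that overlaps 59 exonic bases of Eps8l1. Gm15494 had 2 and 7 reads in cKI f/+ and 3 and 1 in WT, and the part of shared reads in the level of Eps8l1 was not tested. For Eps8, 0.377% of 12479 words occurred elsewhere.

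To compare the members with each other, their CPM were divided by the kilobases of annotated exon. In the WT libraries Eps8l1 was the highest member, at 1.53 and 1.82 CPM per kb, above Eps8 at 0.358 and 0.367 CPM per kb. In the cKI f/+ libraries the order was reversed, with Eps8 at 0.478 and 0.522 CPM per kb and Eps8l1 at 0.338 and 0.192. Within each genotype the 2 genes did not overlap, and Eps8l2 was far below both. The ratio of Eps8l1 to Eps8 per kb was 4.28 and 4.95 in the WT libraries and 0.709 and 0.367 in the cKI f/+ libraries.

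The annotated exons of Eps8 cover 12355 bases over all its transcripts, but its longest transcript has 4567, so the choice of length matters for its level. Divided by the longest transcript instead, Eps8 was at 0.968 and 0.993 CPM per kb in WT and at 1.29 and 1.41 in cKI f/+. Eps8l1 was then at 2.39 and 2.83 CPM per kb in WT and at 0.528 and 0.2995 in cKI f/+. The order within each genotype was the same by both lengths, and the size of the ratio was not.

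As a share of all reads on the family, Eps8l1 made up 67.6% in WT1 (95% exact Clopper-Pearson interval 61.3 to 73.5) and 70.7% in WT3 (64.9 to 76.1). The share was 25.7% in KI2 (18.7 to 33.8) and 15% in KI3 (9.53 to 22.0). These intervals cover counting error only. The shares rest on the same Eps8l1 reads that led to the choice of the family, so they only describe it. The family as a whole had 241 and 270 reads in the WT libraries and 140 in each cKI f/+ library, so its sum was also lower in cKI f/+, although Eps8 was not.

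Both genes were modest in level for this tissue. Averaged over the 4 libraries, the level per kb of Eps8l1 was above that of 20.7% of tested genes and the level of Eps8 above that of 10.5%. In bulk tissue, fewer cells that express a gene and less RNA per cell cannot be told apart.

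**Figure D2:**
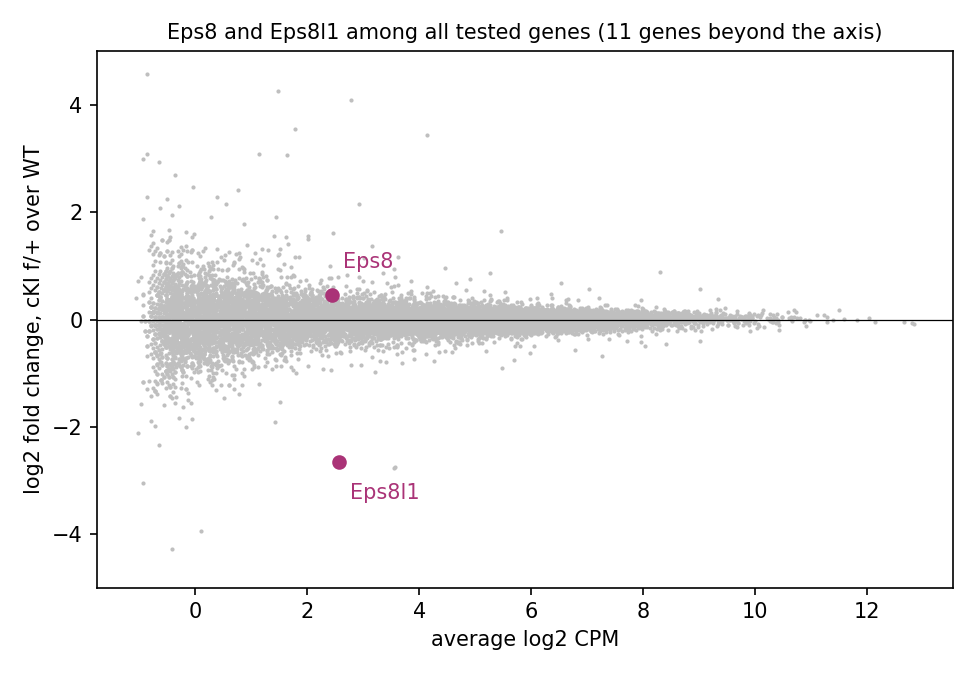
Log2 fold change of cKI f/+ over WT (vertical axis) against average log2 CPM (horizontal axis) for each tested gene, with Eps8 and Eps8l1 marked. Eps8l1 lies at -2.66, with 27 tested genes farther from 0, and Eps8 at 0.46, with 1265 farther. The 11 genes beyond a log2 fold change of 5 in either direction are not drawn.

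The proteins with which the family works were followed in 8 lists of 98 genes, of which 86 passed the filter on low counts. None of the 86 was called by the edgeR quasi-likelihood test, and the smallest adjusted p was 0.969. Only Vav1 had an unadjusted p under 0.05, against 4.6% of all tested genes in either direction and 2.34% lower in cKI f/+, and DESeq2 and edgeR's likelihood ratio test also called 0. The median log2 fold change of the 86 genes was -0.0023, and that of all tested genes was 0.0043. Vav1 and Rac2 were the only partner genes with a larger log2 fold change than Eps8 in either direction, and 0 had one larger than Eps8l1.

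Most partners were far more abundant than the family itself. The median level of the partner genes was 12.4 CPM per kb, and 74 of the 94 found in the table were above Eps8l1 averaged over all libraries. Actb, one of the cytoplasmic actins, stood at 1004 CPM per kb.

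The Rac activation list holds the adaptors and exchange factors that form a complex with Eps8, and the Rac proteins themselves. Of its 10 genes 9 were tested, and 8 had a log2 fold change below 0, with a median of -0.13, where 7704 of all 15786 tested genes were below 0. Abi1, the adaptor that joins Eps8 to Sos1, had 1147 and 1131 reads in cKI f/+ and 1178 and 1349 in WT, with a log2 fold change of -0.18 and a standard error of 0.10. Sos1, the exchange factor, was at -0.18 with a standard error of 0.08. The lowest value was that of Rac2, at -0.56 with a standard error of 0.39, and the highest that of Rac3, at 0.23 with a standard error of 0.11. The libraries of the 2 genotypes did not overlap for 7 of the 9 genes. Abi1, Abi2, Sos1, Sos2, Pik3r1 and Rac2 were lower and Rac3 higher in cKI f/+. Of the 86 partner genes tested in all lists, both cKI f/+ libraries lay above both WT libraries for 9 and below them for 18. Over all tested genes, 34.1% did not overlap. None of the 9 tested genes of the Rac activation list was called (smallest adjusted p = 0.969, edgeR quasi-likelihood test). Rac1 itself was at 0.00 with a standard error of 0.07.

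Among the 13 genes of filopodia and filament bundling, 12 were tested and the median log2 fold change was 0.03. Baiap2, the bundling partner of Eps8, had 1217 and 1090 reads in cKI f/+ and 1129 and 1013 in WT, so its groups overlapped. Its relatives Baiap2l1 and Baiap2l2 gave the lowest and highest values of the list, -0.44 with a standard error of 0.44 and 0.37 with a standard error of 0.32, on at most 36 reads per library. Fascin (Fscn1), the main bundler of filopodial actin, was at 0.02 with a standard error of 0.08.

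The other proteins that cap barbed ends were not called either. In this list 11 of 13 genes were tested, with a median log2 fold change of 0.03. The subunits of capping protein, Capza1, Capza2 and Capzb, were at -0.12, -0.10 and 0.05, with standard errors from 0.08 to 0.09. Avil (advillin) had the highest value of the list, 0.35 with a standard error of 0.31, and Gsn (gelsolin) the lowest, -0.15 with a standard error of 0.23. Vil1 (villin) was not tested, with at most 4 reads per library.

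The machinery that nucleates branched actin held 0 called genes as well. The WAVE complex, which also contains Abi proteins, had 8 of 8 genes tested, from Nckap1 at -0.15 with a standard error of 0.08 to Nckap1l at 0.18 with a standard error of 0.26. The list of the Arp2/3 complex and the actins had 11 of 11 genes tested, from Actr2 at -0.17 with a standard error of 0.08 to Arpc5l at 0.12 with a standard error of 0.09. Actb and Actg1 were at -0.01 and 0.00, each with a standard error of 0.06.

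Upstream of the family, the list of growth factor receptors and endocytosis had 12 of 13 genes tested and a median of 0.00. Egfr, the receptor from which Eps8 takes its name, was itself rare, with 14 and 12 reads in cKI f/+ and 10 and 23 in WT. Its log2 fold change of -0.37, with a standard error of 0.50, was the lowest of the list, and that of Erbb2, 0.15 with a standard error of 0.12, was the highest. Usp6nl (RN-tre), a Rab5 regulator that binds Eps8, was at -0.07 with a standard error of 0.10.

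Proteins of stereocilia and the brush border, where Eps8 and Eps8l2 are known to act, were mostly scarce. Of 13 genes 6 were tested, from Ezr at -0.07 with a standard error of 0.08 to Pls1 at 0.16 with a standard error of 0.30. Whrn (whirlin), which binds Eps8 at stereocilia tips, had 438 and 510 reads in cKI f/+ and 429 and 467 in WT. Its motor partner Myo15 had 3 or 4 reads in each library.

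Other exchange factors for Rac and its effector kinases were all tested, 17 of 17, with a median log2 fold change of -0.03. Vav1, an exchange factor known from blood cells, had 12 and 16 reads in cKI f/+ and 24 and 31 in WT. Its log2 fold change was -0.997 with a standard error of 0.39, and it was not called (adjusted p = 0.969, edgeR quasi-likelihood test). The highest value of the list was that of Arhgef6, 0.11 with a standard error of 0.41.

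**Figure D3:**
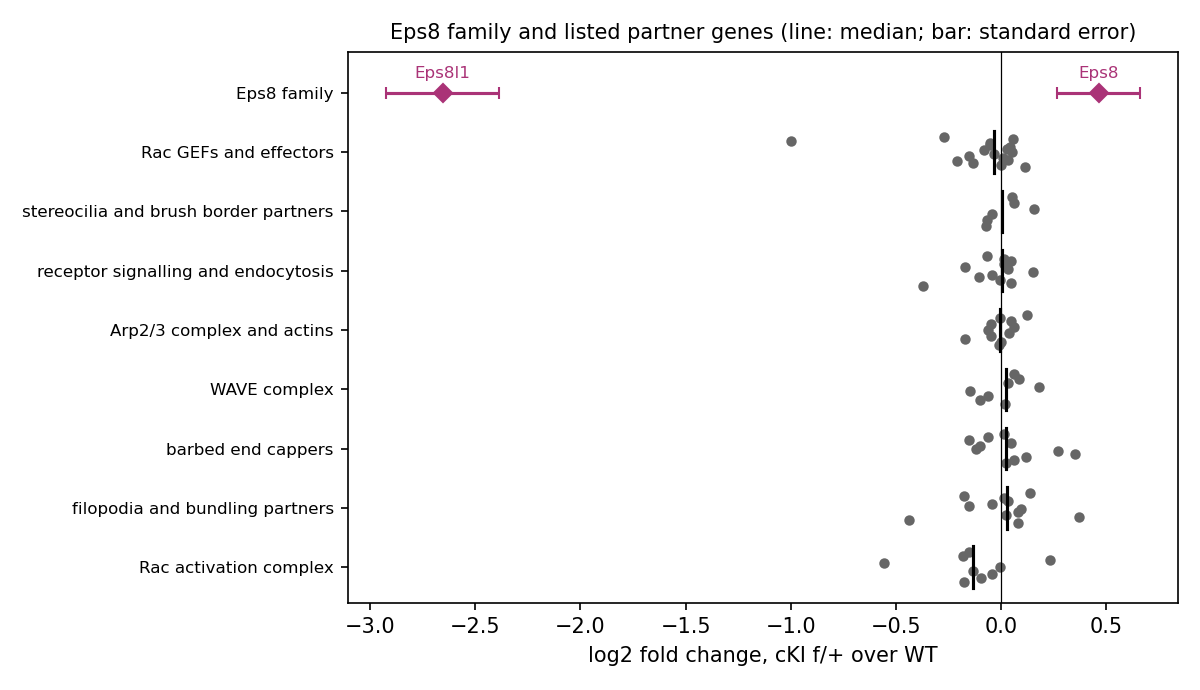
Log2 fold change of cKI f/+ over WT (horizontal axis) for the tested genes of the 8 partner lists, 1 point per gene with a line at the median of each list, and for Eps8 and Eps8l1 with their standard errors. The list medians lie between -0.13 and 0.03, while Eps8l1 lies at -2.66 and Eps8 at 0.46.

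The chromosomal surroundings of each member were then examined, in the 10 tested genes nearest to it. Of the neighbours of Eps8l1, Eps8 and Eps8l2, the edgeR quasi-likelihood test called 0, with a smallest adjusted p of 0.969, and DESeq2 and the likelihood ratio test also called 0. An unadjusted p under 0.05 was found for 1 of these 30 genes, Ptprh. Over all tested genes, 4.6% had such a p and 0.12% were called. The median log2 fold change was -0.01 around Eps8l1, -0.01 around Eps8 and 0.04 around Eps8l2.

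The genes that flank Eps8l1 did not share its difference. Ppp1r12c, a myosin phosphatase subunit on the minus strand, lies 1.03 kb beyond the end of Eps8l1, so the 2 genes converge. Ppp1r12c had 2163 and 2229 reads in cKI f/+ and 2147 and 2212 in WT. Its log2 fold change was -0.02 with a standard error of 0.07. On the other side Rdh13, a retinol dehydrogenase also on the minus strand, lies 15.02 kb before Eps8l1 and points away from it. Rdh13 was at 0.02 with a standard error of 0.09. Ptprh, a receptor tyrosine phosphatase 87.9 kb away, had 8 reads in each cKI f/+ library and 24 and 17 in WT, so it was lower in both cKI f/+ libraries. Its log2 fold change was -1.37 with a standard error of 0.45 on these few reads, and it was not called (adjusted p = 0.969, edgeR quasi-likelihood test).

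Around Eps8, the nearest tested genes were Ptpro, a receptor tyrosine phosphatase, and Strap, an RNA-binding protein, at -0.04 and -0.02, with standard errors of 0.10 and 0.08. Around Eps8l2, Tmem80 and Taldo1, an enzyme of the pentose phosphate pathway, were at 0.03 and 0.05. Tmem80 had between 684 and 720 reads and Taldo1 between 3617 and 3977, so reads were plentiful on both sides of Eps8l2 while the gene itself had almost none.

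**Figure D4:**
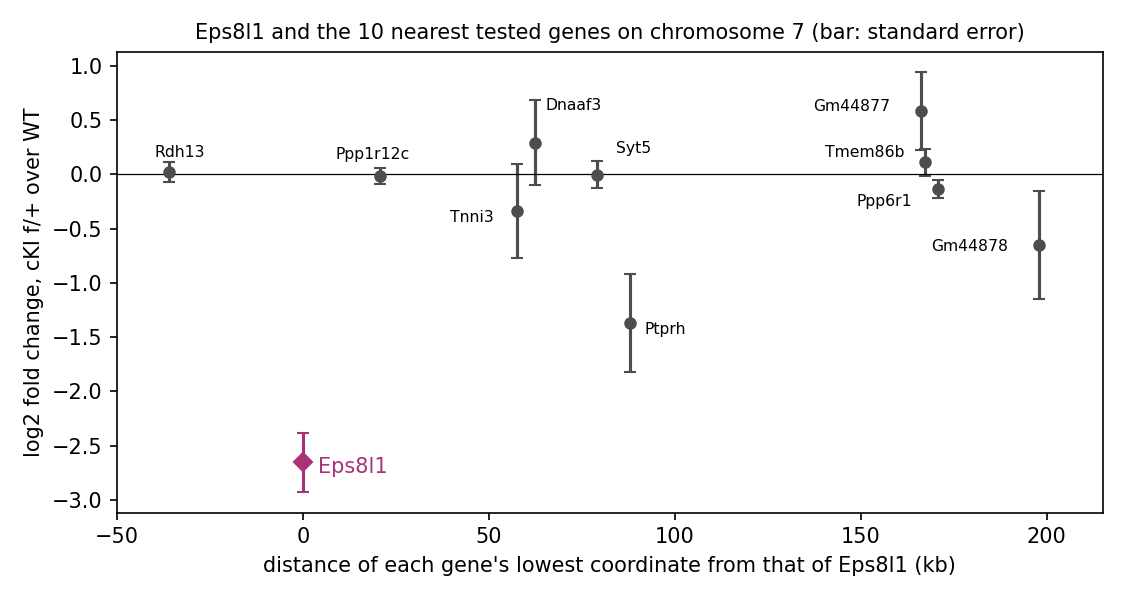
Log2 fold change of cKI f/+ over WT with its standard error (vertical axis) for Eps8l1 and its 10 nearest tested genes, by the distance of each gene's lowest coordinate from that of Eps8l1 in kb (horizontal axis). The flanking genes Rdh13 and Ppp1r12c lie at 0.02 and -0.02, Ptprh lies at -1.37, and Eps8l1 lies at -2.66.

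Markers of other cell types were set beside the members, since Eps8l1 and Eps8l2 are known mainly from epithelia and sensory cells. Of 10 epithelial markers 9 were in the table, 2 of these were at or under 3 reads in every library, and Epcam alone was tested. Their summed level was 2.04 and 2.59 CPM in cKI f/+ and 1.59 and 1.55 CPM in WT, on few reads, and its part in the level of Eps8l1 was not tested. The markers of this list did not move together. Cdh1, which defines epithelia, had 9 and 10 reads in cKI f/+ and 0 and 2 in WT. Epcam had 14 and 13 reads in cKI f/+ and 15 in each WT library, and Grhl2 had 2 and 2 against 5 and 2. Krt8 had 0 reads in KI2 and 13 in KI3, against 1 and 0 in WT. Choroid plexus markers summed to 10.6 CPM in KI2 and 68.2 CPM in KI3, against 2.78 and 4.94 CPM in WT, with 2 of the 8 in the table at or under the floor in every library and Ttr at 116 and 956 reads against 0 and 4. Meningeal markers summed to 22.4 and 20.3 CPM in cKI f/+ and to 10.1 and 11.7 CPM in WT. Both sums were higher in cKI f/+, the direction of Eps8 and opposite to Eps8l1. Not every marker followed the sums. Foxc1, of the meninges, had 26 and 38 reads in cKI f/+ and 53 and 35 in WT. Otx2 and Folr1, of the choroid plexus, overlapped between genotypes. Ttr alone stood at 6.58 CPM in KI2 and 52.7 CPM in KI3. The part of the choroid plexus and the meninges in the levels of either gene was not tested.

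The sums of the other lists lay closer together. Endothelial markers summed to between 86.0 and 97.8 CPM and microglial markers to 28.3 and 30.7 CPM in cKI f/+ and 34.9 and 33.5 CPM in WT. Blood markers summed to between 366.5 and 522.4 CPM, with KI3 the lowest. Markers of the ventral telencephalon summed to between 240.8 and 308.4 CPM and those of intermediate progenitors to between 1152 and 1220 CPM. Of the 63 markers tested, the edgeR quasi-likelihood test called 0 and DESeq2 called 0, while 14 of the 63 had an unadjusted p under 0.05, where 726 of all 15786 tested genes (4.6%) did. The 14 included 3 of 5 choroid plexus, 4 of 5 meningeal, 3 of 7 blood and 2 of 8 ventral telencephalic markers, and their part in the levels of the members was not tested. The likelihood ratio test called 3. Calls also appeared when single libraries were left out, 4 without KI2, 5 without KI3, and 3 without either WT1 or WT3, with Ttr among them each time.

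The genes whose profile over the 4 libraries was nearest to that of a member were found by the root mean square difference of their centred log2 CPM. Those nearest to Eps8 were Htr6, a serotonin receptor, at 0.02, Cmya5 at 0.02 and Egfl8 at 0.02. Each had at most 45 reads per library, and none was called. Those nearest to Eps8l1 were more distant, namely the pseudogene Gm15801 at 0.39, Oscar at 0.43 and Xlr3b at 0.44. Oscar, an immune receptor, had 2 and 0 reads in cKI f/+ and 28 and 15 in WT. Xlr3b, on the X chromosome, had 38 and 23 reads in cKI f/+ and 247 and 122 in WT. Gm15801 and Xlr3b were among the 8 genes called lower, and Oscar was not (adjusted p = 0.252, edgeR quasi-likelihood test). With only 4 libraries, such likeness follows the difference between genotypes itself and is a description only.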

How the data were processed

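Cortical total RNA was read on an Illumina HiSeq machine. The authors deposited raw counts of reads per gene for 4 libraries, without normalization. Per the labels, the submitters' processing notes list Bowtie2 2.2.3, TopHat2 2.0.12 and HTSeq 0.6.0 and the build mm9, whereas 24486 of the 26433 genes have exactly the positions of GENCODE M21, which is on GRCm38. The strand setting of the counting is not given in the sources used here. The table also holds the authors' own comparison (a mean level, fold changes and p-values), which was not used. Columns were assigned to a genotype and not to a labelled sample.

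Genes passing edgeR's expression filter (15786) were normalized by TMM and tested with the quasi-likelihood test in edgeR 4.0.16 (R 4.3.3), with 2 libraries against 2 and a Benjamini-Hochberg threshold of 0.05. A standard error is the log2 fold change divided by the square root of F. The common biological coefficient of variation was 8.72%. Libraries of a genotype were not copies, with a chi-square per degree of freedom of 5.63 for cKI f/+ and 7.49 for WT. For a single gene an exact permutation test could not go below p = 0.333. Lengths and overlaps came from GENCODE M21 and promoter windows from RefSeq. The test was checked on simulated counts. DESeq2 1.42.0 and other normalizations, filters and left-out libraries were the alternatives.

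The members and the lists were chosen with earlier results of these data known. Genes are named if they are members, were called in a list, gave the largest increase or decrease of a partner list, flank a member or were called near it, are among the 3 most like a member, or check the genotype. Abi1, Sos1, Rac1, Baiap2, Fscn1, the capping protein subunits, Vil1, Actb, Actg1, Usp6nl, Whrn, Myo15, Ptprh, Abi2, Sos2, Pik3r1, Zfp784, Gm5905, Cdh1, Gm15494, B230206H07Rik and the cell type markers fall outside that rule and were named for their role after their values were seen.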

Additional observations from a re-analysis of the deposited data

How the results depend on the processing

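Under 8 other tests, normalizations, filters and gene sets, the log2 fold change of Eps8l1 stayed between -2.66 and -2.65 and that of Eps8 between 0.46 and 0.47. With each library left out in turn, Eps8l1 lay between -3.13 and -2.31 and Eps8 between 0.39 and 0.52. In these fits the genotype with 1 library is assumed to vary like the other. With length taken from the longest transcript, the mean level of Eps8 was 1.17 instead of 0.431 CPM per kb and that of Eps8l1 was 1.51 instead of 0.969. The partner lists and the neighbours held 0 called genes under every alternative run, including each left-out library. The number of genes called over all genes was 19. It became 54 by the likelihood ratio test, 6 when each library had to hold at least 10 counts, 11 with the sex chromosomes omitted, and between 46 and 71 with a library left out. The marker lists held 0 called genes, 3 with the likelihood ratio test, and between 3 and 5 with a library left out. Xist, Kdm5d, Eif2s3y, Ddx3y and Uty were among the 19 called genes, and both the stricter filter and the omission of sex chromosomes remove them. Both settings also leave fewer genes to test. What caused the changes in the number of called genes was not tested. No paired analysis was possible, because the sources used here do not say which libraries share a litter. Fewer than 2 replicate numbers occur in both genotypes, and nothing says that these numbers mark litters. With 2 libraries per genotype, small changes of genes at the level of Eps8 are poorly resolved, and Eps8l2 could not be compared at all.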

Other observations

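The tested genes within 1 Mb on each side of the members were also counted, a window chosen after the values were seen. Around Eps8l1 there were 56, of which 0 were called by the edgeR quasi-likelihood test and 3 had an unadjusted p under 0.05, or 5.36% against 4.6% of all tested genes. These were Ptprh, with the values given above, Zfp784 and Oscar. Zfp784, a zinc finger gene, had 15 and 26 reads in cKI f/+ and 3 and 6 in WT. The lowest coordinate of Oscar lies at -851 kb from that of Eps8l1. The directions were mixed, with Ptprh and Oscar lower and Zfp784 higher in cKI f/+. Around Eps8l2, 1 of 44 genes had an unadjusted p under 0.05, the pseudogene Gm5905, with 59 and 77 reads in cKI f/+ and 19 and 26 in WT. Around Eps8 it was 0 of 11.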
